A study of Homo sapiens with 8 samples.

Results

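The clustered protocadherins are cell adhesion proteins of the cadherin superfamily whose genes lie head to tail in 3 neighbouring clusters on chromosome 5. In the alpha and gamma clusters each variable first exon has a promoter of its own and is spliced to constant exons that the cluster shares, whereas each beta gene is a single exon. The choice among the variable promoters gives neurons a combinatorial surface identity. Most variable promoters carry a conserved element with the core CGCT that is bound by CTCF, which together with cohesin brings a chosen promoter to distal enhancers. The C-type isoforms at the end of the alpha and gamma clusters are known to be used less selectively than the other, alternate isoforms.

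The genes studied here were all protein-coding genes on chromosome 5 named PCDHA, PCDHB, PCDHGA, PCDHGB or PCDHGC with a number, PCDHAC included, in the GENCODE annotation. This gave 53 of 19970 protein-coding genes, of which 15 belonged to the alpha, 16 to the beta and 22 to the gamma cluster, and all were on the plus strand. They span chr5:140786136-141512977 on GRCh38. Peaks were considered from 50 kb before to 200 kb after this span, which held 58 of the 126658 regions obtained by merging the 4 peak lists.

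Chromatin accessibility was measured by ATAC-seq in MCF10A, a non-tumorigenic human mammary epithelial line, for which the labels name no genetic change. Cells received solvent, which the labels place at time 0, or TGFβ1 at 5 ng/ml for 6, 24 or 72 h, with 2 replicates of each of the 4 conditions. The authors called peaks on both replicates of a condition together, so that each condition has 1 list, and the values given here have no replicate error and were not tested. The study tested differential accessibility on reads counted per replicate, and those results were not used here. The level given throughout is the AUC of a peak, the area under the significance curve of the peak caller, which has no unit, starts at 200 and was not scaled between lists.

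The lists held 86209 peaks in solvent and 107656, 118433 and 116720 peaks after 6, 24 and 72 h, and while the study aimed at the same read number for every sample, the number reached is not in the lists. Over all regions shared with solvent, the median AUC was 1.42-fold, 1.42-fold and 1.31-fold that of solvent at 6, 24 and 72 h, and this common shift is given beside the ratios at this locus. Of 5 epithelial marker promoters 4 were open in every list, with no peak at the TP63 start site used here. Other start sites of TP63 were not examined. Of 5 blood and neural marker promoters 1 was open in every list, that of SYP.

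The promoter sequences that show the contrasts of the locus are given first, each as bases −130 to −21 from the start site on the plus strand of GRCh38, with CGCT in capitals. PCDHAC1, PCDHAC2, PCDHGC3 and PCDHGC5 are the C-type promoters that were open in all 4 lists. PCDHA12 and PCDHB14 are alternate promoters that were open in all lists, PCDHB15 is the closed neighbour of PCDHB14, and PCDHGB5 and PCDHGB4 form a near-identical pair of which 1 was open.
PCDHAC1, chr5:140926169-140926278: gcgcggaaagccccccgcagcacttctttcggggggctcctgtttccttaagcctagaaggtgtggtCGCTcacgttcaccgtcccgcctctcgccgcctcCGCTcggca
PCDHAC2, chr5:140966346-140966455: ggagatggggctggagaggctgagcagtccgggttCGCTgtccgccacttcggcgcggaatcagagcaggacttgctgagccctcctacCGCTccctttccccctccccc
PCDHGC3, chr5:141475836-141475945: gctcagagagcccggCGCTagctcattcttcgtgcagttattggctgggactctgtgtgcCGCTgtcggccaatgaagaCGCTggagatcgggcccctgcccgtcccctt
PCDHGC5, chr5:141488951-141489060: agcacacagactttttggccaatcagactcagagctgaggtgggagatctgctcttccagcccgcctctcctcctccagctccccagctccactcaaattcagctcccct
PCDHA12, chr5:140875178-140875287: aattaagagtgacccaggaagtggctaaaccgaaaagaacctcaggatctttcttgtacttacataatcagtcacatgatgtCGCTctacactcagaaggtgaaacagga
PCDHB14, chr5:141223213-141223322: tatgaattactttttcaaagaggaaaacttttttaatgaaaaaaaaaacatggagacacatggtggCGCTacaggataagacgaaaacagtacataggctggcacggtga
PCDHB15, chr5:141245265-141245374: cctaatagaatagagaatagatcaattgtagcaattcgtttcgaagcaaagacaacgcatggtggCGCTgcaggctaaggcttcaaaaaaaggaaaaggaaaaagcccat
PCDHGB5, chr5:141397817-141397926: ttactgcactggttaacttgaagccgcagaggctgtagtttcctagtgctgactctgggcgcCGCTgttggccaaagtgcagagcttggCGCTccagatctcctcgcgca
PCDHGB4, chr5:141387568-141387677: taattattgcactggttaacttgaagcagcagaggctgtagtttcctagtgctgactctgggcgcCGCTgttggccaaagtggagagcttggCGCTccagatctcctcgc

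To find out which variable promoters were accessible, a promoter was called open when a peak lay within 500 bp of its start site. In solvent 12 of 53 promoters were open, which is 22.6% with a 95% Wilson interval of 13.5 to 35.5% for counting error. This interval treats the genes as independent draws, although they are the full set, and does not cover replicate error. After 6, 24 and 72 h of TGFβ1 the number of open promoters was 16, 18 and 16. Among all protein-coding promoters 64.2% were open in solvent and 65.9%, 66.0% and 65.4% at 6, 24 and 72 h, a share that was higher than that of the clustered protocadherins in every list. Of the 53 promoters 12 were open in all 4 lists, 7 in some of them and 34 in none.

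**Figure D1:**
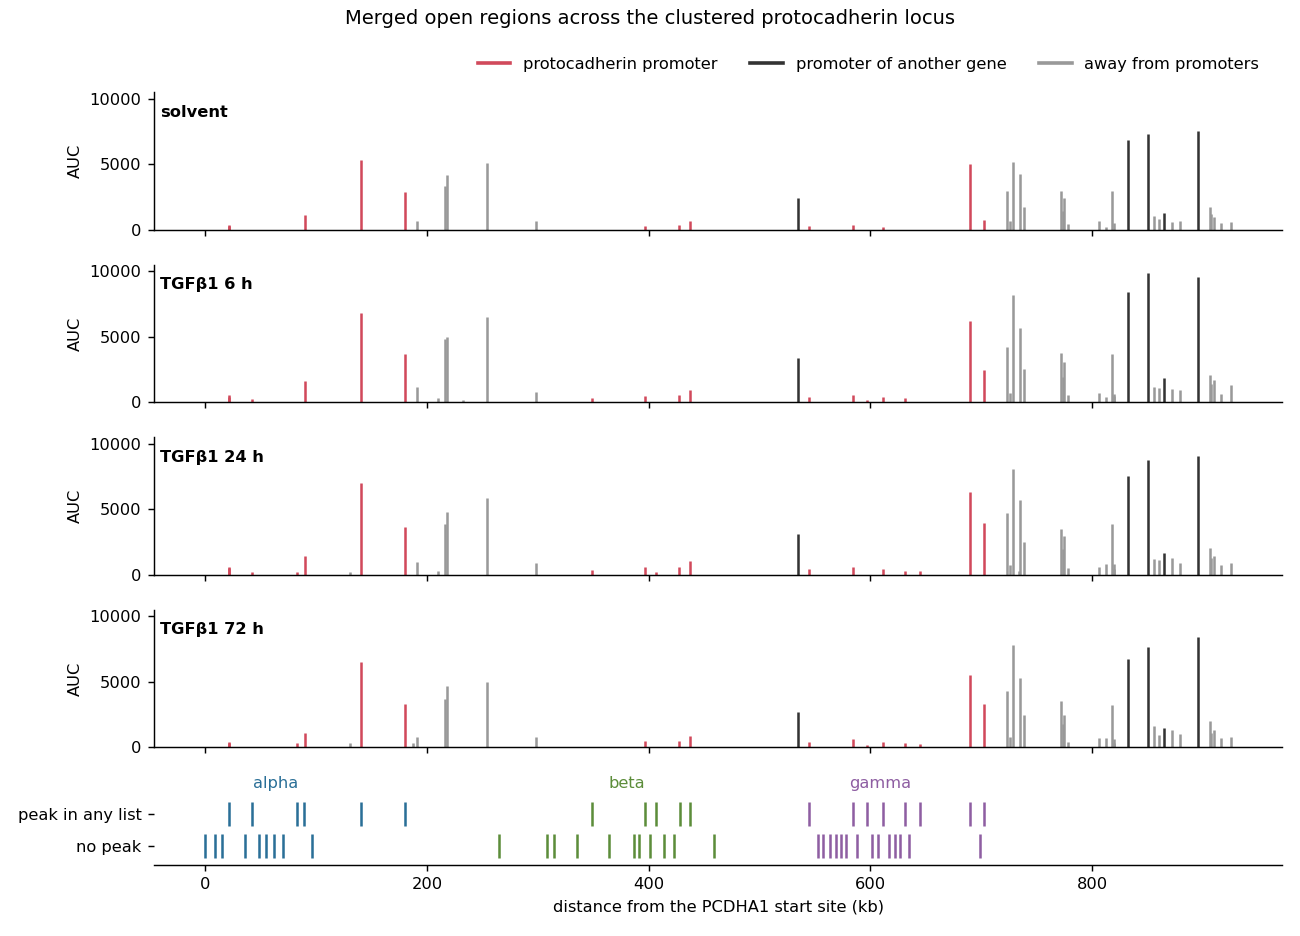
The AUC of each merged region is drawn as a vertical line against its distance in kb from the PCDHA1 start site, 1 panel per peak list, with the start sites of the 53 genes below, those with a peak in any list above those with none. Tall lines stand at the promoters of PCDHAC1, PCDHAC2 and PCDHGC3, at some regions away from promoters and at promoters of other genes. The tallest line of each panel is at a promoter of another gene. The beta cluster and the alternate gamma promoters hold short lines.

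The open promoters were spread over all 3 clusters. In the alpha cluster 4, 5, 6 and 5 of 15 were open in solvent and at 6, 24 and 72 h, in the beta cluster 3, 4, 5 and 3 of 16, and in the gamma cluster 5, 7, 7 and 8 of 22. The contrast between isoform types was larger than that between clusters. Of the 5 C-type promoters 4 were open in each list, against 8, 12, 14 and 12 of the 48 alternate promoters.

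PCDHAC1, PCDHAC2 and PCDHGC3, all C-type, had a higher AUC than any alternate promoter in each list. PCDHAC1, the first C-type isoform of the alpha cluster, had an AUC of 5352 in solvent and 6847, 7036 and 6530 at 6, 24 and 72 h. PCDHAC2, the last alpha isoform, had 2864 in solvent and 3719, 3653 and 3308 after TGFβ1. PCDHGC3, a C-type isoform known to be broadly used outside the nervous system, had 5032 in solvent and 6191, 6292 and 5514 after TGFβ1. For comparison, the median AUC of all open protein-coding promoters was 3093 in solvent and 4052, 3753 and 3422 at 6, 24 and 72 h, so that PCDHAC1 and PCDHGC3 lay above it and PCDHAC2 just below it in every list. PCDHGC4, which sits between PCDHGC3 and PCDHGC5, was the C-type promoter without a peak in any list.

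PCDHGC5, the last isoform of the gamma cluster, was the member that differed most between the lists. Its promoter had an AUC of 789 in solvent, and the AUC was 2491, 3985 and 3331 in the lists of 6, 24 and 72 h, which is 3.16-fold, 5.05-fold and 4.22-fold the solvent value. In solvent it ranked at percentile 8.39 of all open protein-coding promoters by AUC, and at percentiles 25.7, 53.9 and 48.4 at 6, 24 and 72 h. Of all protein-coding promoters open in both lists, 86 of 12810 had a higher ratio at 6 h, 12 of 12791 at 24 h and 19 of 12756 at 72 h. Among the promoters whose solvent AUC also lay from 400 up to 800, 18 of 722, 3 of 721 and 6 of 707 had a higher ratio at the 3 times. The peak covered 798 bp in solvent and 1014, 1023 and 1025 bp after TGFβ1, and its summit lay at −28 bp from the start site in solvent and at −237, −251 and −259 bp after TGFβ1, where negative positions are upstream. With no replicate values in the lists, these differences could not be set against a replicate error.

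The stretch from −300 to −200 of PCDHGC5, where the summits of the TGFβ1 lists fell, is shown with a match to the core of the CTCF motif in capitals. Such a core was taken as the word AGAGGGC, the word AGATGGC, the word AGGGGGC or the word AGGTGGC on either strand, and it is a match of letters only. It was found in 30.5% of 35116 promoter windows of 300 bases in RefSeq. Those windows differ from this stretch in length and position, so that their share is not a rate for it.
PCDHGC5, upstream stretch, chr5:141488781-141488881: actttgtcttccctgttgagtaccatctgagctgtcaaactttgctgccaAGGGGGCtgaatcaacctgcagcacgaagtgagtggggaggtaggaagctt

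The alternate alpha promoters with a peak were PCDHA4, PCDHA6, PCDHA11 and PCDHA12. PCDHA12 was the strongest alternate promoter of the locus, with an AUC of 1112 in solvent and 1631, 1456 and 1110 at 6, 24 and 72 h. PCDHA4 carried a pair of peaks, 1 over the start site with its summit upstream and 1 in the first exon. Their AUC added up to 698 in solvent and 1025, 1110 and 728 after TGFβ1. PCDHA6 had 254 at 6 h and 218 at 24 h and no peak in solvent or at 72 h. PCDHA11 had 206 at 24 h and 305 at 72 h and no peak before. Both sat close to the lowest AUC that a list can hold.

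In the beta cluster PCDHB16, PCDHB13 and PCDHB14 were open in all lists. PCDHB14 had 663 in solvent and 962, 1068 and 853 at 6, 24 and 72 h, and its peak also overlaps the start of a gene known as ENSG00000279983, so that it cannot be given to PCDHB14 alone. PCDHB13 had 361 in solvent and 588, 586 and 508 after TGFβ1. PCDHB16 had 282 in solvent and 454, 627 and 458 after TGFβ1. PCDHB5 had a peak at 6 h (AUC 339) and 24 h (AUC 350) alone, and PCDHB10 at 24 h alone (AUC 241).

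Of the alternate gamma promoters, PCDHGA1, PCDHGB3 and PCDHGB5 were open in all lists. PCDHGB3 had 365 in solvent and 551, 624 and 617 at 6, 24 and 72 h. PCDHGA1, the first gene of the cluster, had 260 in solvent and 407, 454 and 440 after TGFβ1. PCDHGB5 had 225 in solvent and 383, 477 and 404 after TGFβ1. PCDHGB7 had peaks of 298, 281 and 299 at 6, 24 and 72 h and none in solvent, PCDHGA12 had 278 at 24 h and 273 at 72 h, and PCDHGA7 had 218 at 6 h and 207 at 72 h. Of the PCDHGB genes PCDHGB1, PCDHGB2, PCDHGB4 and PCDHGB6 had no promoter peak in any list.

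**Figure D2:**
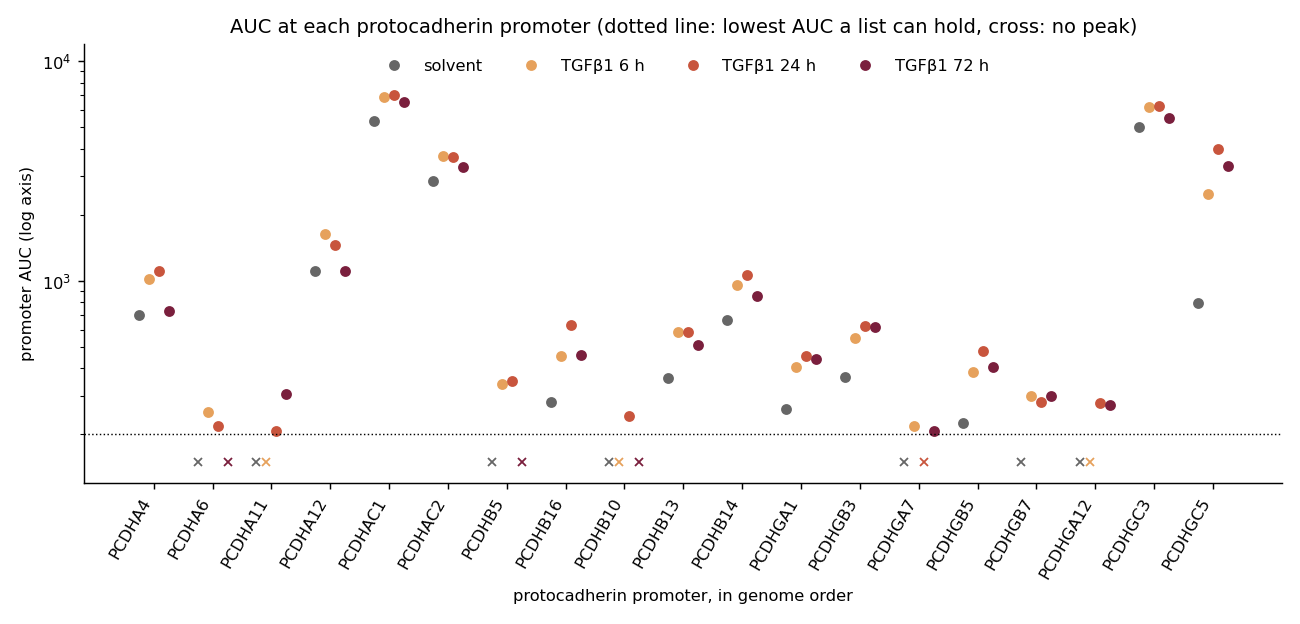
The AUC, on a log axis, of the 19 promoters with a peak in any list, in genome order, with 1 point per list. The C-type promoters PCDHAC1, PCDHAC2 and PCDHGC3 stand above all alternate promoters in each list, and PCDHGC5 has 789 in solvent, below PCDHA12, and 2491 to 3985 after TGFβ1, above PCDHAC2 at 24 and 72 h.

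Most alternate promoters were therefore weak where open. Their median AUC was 363 in solvent and 431, 466 and 449 at 6, 24 and 72 h, near the lower limit of the lists. Among the 7 promoters with a peak only after TGFβ1, the highest AUC was 350, that of PCDHB5 at 24 h. When every list was shortened to its 86209 strongest peaks, the length of the solvent list, the lowest AUC kept was 364, 444 and 426 at 6, 24 and 72 h, and the numbers of open promoters were 12, 12, 12 and 10. In these shortened lists the open promoters at 6 and 24 h were the same 12 genes as in solvent, and PCDHA4 and PCDHGB5 were missing at 72 h. With a fixed minimum AUC of 400 in every list, by contrast, 6 promoters were open in solvent and 11, 12 and 11 after TGFβ1. Whether more promoters were open after TGFβ1 therefore depended on how the lists, which were not scaled, were made comparable.

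The peaks of the 2 isoform types also differed in shape. In solvent the alternate promoters had peaks with a median width of 217 bp, against 1099 bp at the C-type promoters, and at 24 h the widths were 239 and 1240 bp. The summit of an alternate promoter usually lay upstream of the start site, in 7 of 8 open promoters in solvent and in 11 of 14 at 24 h, and the median summit position at 24 h was −46.5 bp. The exceptions were PCDHB14 in solvent, at 5 bp, and PCDHB5, PCDHGA12 and PCDHA12 at 24 h, at 25, 42 and 564 bp. The peak of PCDHA12 was wide, and its summit lay at −4 bp in solvent. At the C-type promoters PCDHAC1 and PCDHAC2 the summit lay inside the first exon, at 388 and 220 bp at 24 h, whereas that of PCDHGC3 lay at −39 bp.

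**Figure D3:**
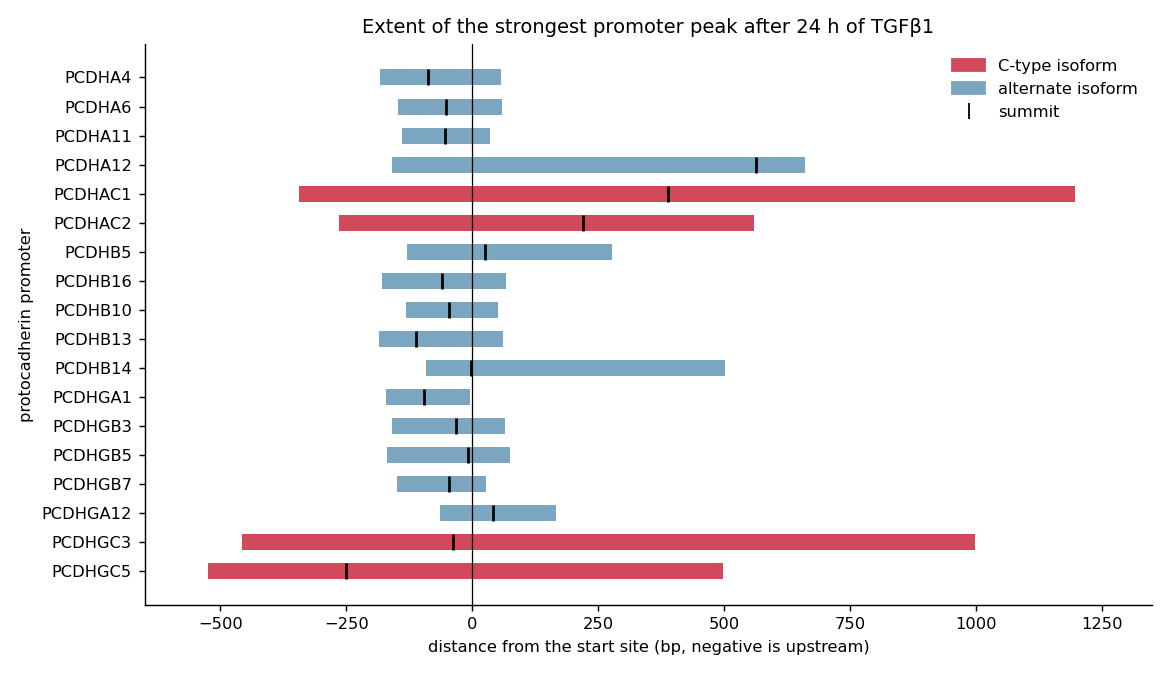
Each bar is the extent of the strongest peak at a protocadherin promoter open at 24 h of TGFβ1, in bp from the start site, and the tick is its summit. Most alternate promoters hold narrow peaks around the start site, and the C-type promoters wide ones.

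The sequences of the promoters were then compared with this pattern. Promoter windows of RefSeq on GRCh38.p14, from 250 bases before to 50 after a start site, were found for 47 of the 53 genes, leaving out PCDHA3, PCDHA13, PCDHB6, PCDHB11, PCDHGA12 and PCDHGC5. The letters CGCT, on either strand, were found in 46 of 47 windows, against 70.0% of all 35116 promoter windows. On the plus strand of the gene and starting 100 to 30 bases before the start site, a position chosen after the matches were seen, CGCT was found in 43 of 47 windows, against 21.6% of all. It was present in 16 of 17 windows with a peak in any list and in 27 of 30 with none. In these windows the letters therefore did not separate open from closed promoters. The genes left out were read from −130 to −21 instead. Of the open ones, PCDHGC5 held no CGCT there and PCDHGA12 held it on the minus strand only. Of those without a peak, PCDHA3, PCDHA13 and PCDHB11 held it on the plus strand, and PCDHB6 did not hold it. The longer word GGCGCT was found in 13 of 14 beta windows, 8 of 20 gamma windows and 1 of 13 alpha windows, against 21.7% of all promoters, on either strand and overlapping CGCT. The AP-1 motif, here the word TGACTCA or the word TGAGTCA, was found in 0 of 47 windows, against 4.95% of all, and the CTCF core in 5 of 47.

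The base composition followed the isoform types. The 43 alternate windows had a median GC content of 38.7% and the 4 C-type windows one of 61.8%, against 58.7% over all promoters. Open and closed promoters differed little, with medians of 41.0% for those with a peak in any list and 39.2% for those with none.

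Some promoters are close copies of each other, which bears on how reads could be placed. Outside the alpha cluster 4 pairs of genes shared at least 95% of bases over an aligned stretch of 150 bp or more within 500 bp of the start site, and in each pair 1 promoter was open in at least 1 list and the other in none. PCDHGB5 and PCDHGB4 shared 97.1% of 657 bp, and PCDHGB5 was open in all 4 lists. PCDHB13 and PCDHB8 shared 96.4% of 1001 bp, and PCDHB13 was open in all 4 lists. PCDHGB7 and PCDHGB6 shared 96.9% of 609 bp, and PCDHGB7 was open in 3 lists. PCDHB10 and PCDHB9 shared 99.3% of 282 bp, and PCDHB10 was open in 1 list. Alternate alpha promoters also passed this limit, and there the pattern did not always hold. PCDHA3 and PCDHA8 shared 96.4% of 308 bp, and neither was open in any list. PCDHA6 and PCDHA8 shared 97.2% of 320 bp, and PCDHA6 was open in 2 lists. The authors kept reads of high mapping quality only. Stretches of 150 bases that recur exactly elsewhere at the locus made up 25.0% of the window of PCDHGB5 and 24.3% of PCDHGB4, 21.5% of PCDHB13 and 16.8% of PCDHB8, 10.8% of PCDHB10 and 15.7% of PCDHB9, and 1.88% of both PCDHGB7 and PCDHGB6. In 43 of the 53 genes the window held none, PCDHA3, PCDHA6 and PCDHA8 among them. The part of lost reads in the closed promoters was not tested.

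To see whether the open promoters changed beyond the common shift, their ratios to solvent were set beside those of all protein-coding promoters. Over all promoters open in both lists the median ratio was 1.31, 1.23 and 1.12 at 6, 24 and 72 h, and over the 12 clustered protocadherin promoters 1.49, 1.62 and 1.35. Weak promoters had larger ratios throughout the genome, however. Promoters with a solvent AUC from 200 up to 400 had a median ratio of 1.70, 1.76 and 1.49, and the 5 protocadherin promoters in this range one of 1.61, 1.74 and 1.69. In the range from 3200 up to 6400 the median over all promoters was 1.28, 1.20 and 1.10, and PCDHAC1 and PCDHGC3 had ratios of 1.28 and 1.23 at 6 h, 1.31 and 1.25 at 24 h, and 1.22 and 1.10 at 72 h. All members other than PCDHGC5 lay between the 5th and the 95th percentile of the promoters in their own range at each time.

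**Figure D4:**
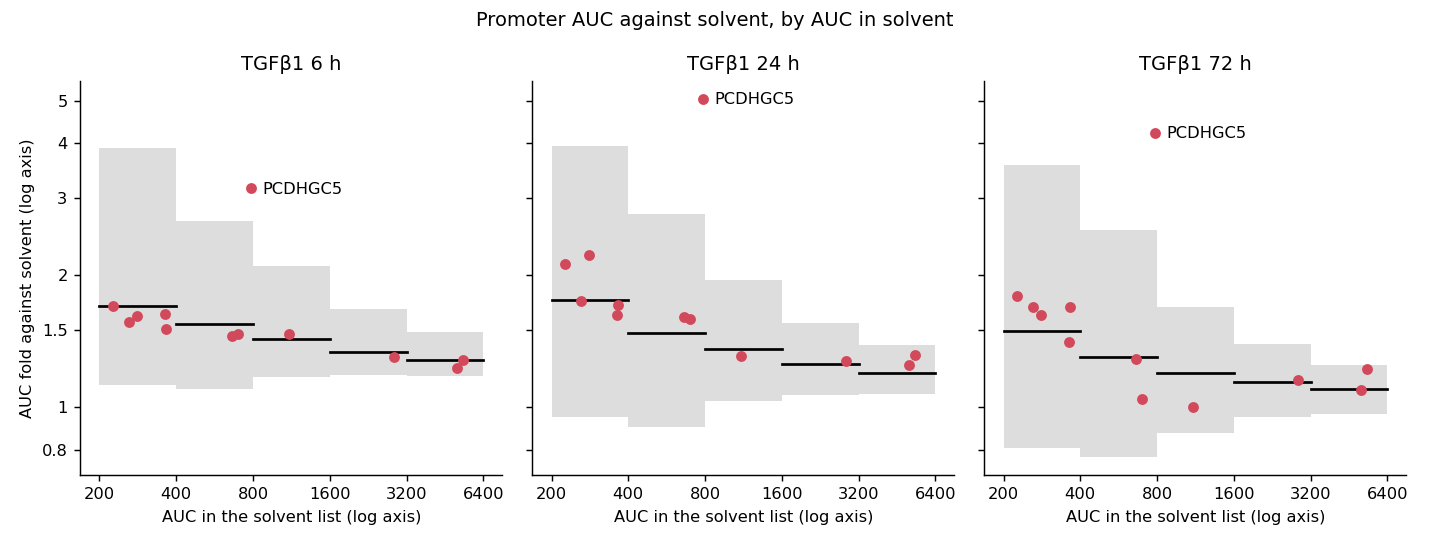
The AUC ratio to solvent of each protocadherin promoter open in both lists (red points) against its AUC in solvent, both on log axes, with the median (black line) and the 5th to 95th percentile (grey) of all protein-coding promoters in ranges of solvent AUC. PCDHGC5 lies above the grey band at 6, 24 and 72 h, and the other 11 points lie within it.

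Distal elements of the locus were examined next. Of the 58 regions 20 lay at protocadherin promoters, 5 at promoters of other protein-coding genes, 9 in exons, 16 in introns and 8 between genes. No region was found in the 50 kb before the alpha cluster. Away from promoters 27 regions had a peak in solvent and 30, 31 and 30 at 6, 24 and 72 h, and 11 of these regions lay inside the span of the genes.

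The strong distal regions of the alpha cluster lay downstream of its variable exons, where enhancers of the cluster have been mapped in the last intron and past the last constant exon. The region chr5:141001159-141002716, in the intron between exons 3 and 4 of PCDHAC2, had an AUC of 3328 in solvent, against 4852, 3850 and 3660 after TGFβ1. The region chr5:141003854-141004731 in the same intron had 4214 in solvent and 4957, 4814 and 4706 after TGFβ1. Between the alpha and the beta cluster, 27270 bp after the last exon of PCDHAC2, the region chr5:141039617-141041470 had 5095 in solvent and 6477, 5846 and 4982 after TGFβ1. It covers an annotated start site of the lncRNA ENSG00000288892, and counts as away from promoters only because protein-coding start sites alone were used. In each list the AUC of these 3 regions lay between those of the PCDHAC2 and PCDHAC1 promoters. Their ratios to solvent at 24 and 72 h lay below the common shift of all regions.

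In the gamma cluster the region chr5:141508599-141509727, in the intron between exons 3 and 4 of PCDHGC5, had 2931 in solvent and 4231, 4753 and 4335 at 6, 24 and 72 h. It lies 529 bp from an annotated start of a PCDHGC3 transcript. The last constant exon held a weaker region, chr5:141512239-141512633, with 685 in solvent and 740, 774 and 757 after TGFβ1. Just past the gamma cluster, 683 bp after the last exon of PCDHGC5, lay chr5:141513658-141515253 at the end of DIAPH1, which encodes a formin that drives actin assembly. It had 5191 in solvent and 8186, 8094 and 7775 after TGFβ1, the highest AUC away from promoters at this locus in each of the 4 lists. A further strong region in DIAPH1, chr5:141520723-141521879, had 4292 in solvent and 5664, 5726 and 5323.

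The 151 bases around the summit of the strongest peak are shown for the 4 strong distal regions inside the span of the genes, with matches to the CTCF core or the AP-1 motif in capitals. The first holds 2 CTCF cores on the plus strand, the second an AP-1 motif, the third a CTCF core on the minus strand, and the last neither.
first intronic region of the alpha cluster, chr5:141001566-141001716: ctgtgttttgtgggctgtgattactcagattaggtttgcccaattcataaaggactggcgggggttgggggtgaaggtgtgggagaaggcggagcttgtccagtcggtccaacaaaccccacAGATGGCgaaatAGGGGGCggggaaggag
second intronic region of the alpha cluster, chr5:141004241-141004391: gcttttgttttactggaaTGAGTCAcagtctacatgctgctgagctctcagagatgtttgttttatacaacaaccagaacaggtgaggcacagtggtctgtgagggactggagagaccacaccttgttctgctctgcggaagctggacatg
region between the alpha and beta clusters, chr5:141040219-141040369: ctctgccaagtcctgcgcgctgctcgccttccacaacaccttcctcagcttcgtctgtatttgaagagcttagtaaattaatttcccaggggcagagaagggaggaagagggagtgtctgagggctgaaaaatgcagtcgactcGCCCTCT
intronic region of the gamma cluster, chr5:141509230-141509380: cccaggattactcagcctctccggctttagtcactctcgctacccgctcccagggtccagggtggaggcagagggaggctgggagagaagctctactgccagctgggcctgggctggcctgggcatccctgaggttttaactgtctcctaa

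Across all 33 regions away from promoters, 16 held a CTCF core and 12 an AP-1 motif in their whole width, against 32.5% and 39.4% of the 7922 merged regions of chromosome 5. Of the 20 protocadherin promoter regions 5 held a CTCF core and 0 an AP-1 motif. These regions differ in width, and a wider region holds more matches by its length alone.

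**Figure D5:**
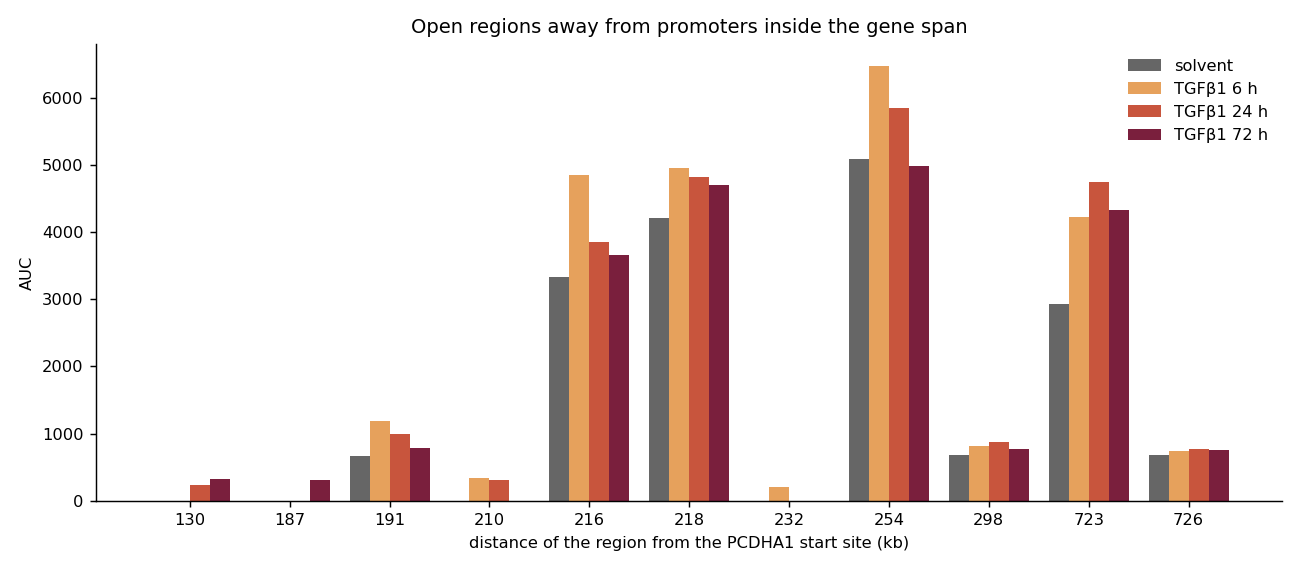
The AUC of the 11 regions away from promoters inside the span of the genes, 1 bar per peak list, labelled by their distance in kb from the PCDHA1 start site, with no bar where a list has no peak. The regions at 216, 218, 254 and 723 kb stand at 2931 or more in all 4 lists, and 4 weak regions have no peak in solvent. The region at 254 kb covers a start site of an lncRNA.

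Weaker distal regions were seen in some lists only. In the intron of the alpha genes before PCDHAC1, chr5:140916389-140916671 had 241 at 24 h and 324 at 72 h. In the intron between exons 1 and 2 of PCDHAC2, chr5:140972930-140973128 had 309 at 72 h. In the intron between exons 3 and 4 of PCDHAC2, chr5:140996160-140996515 had 338 at 6 h and 303 at 24 h. Between the alpha and beta clusters chr5:141018059-141018212 had 211 at 6 h. None of these had a peak in solvent. Open in all lists was chr5:140976875-140977385 in the intron between exons 1 and 2 of PCDHAC2, with 673 in solvent and 1192, 988 and 785 after TGFβ1. So was chr5:141084493-141084736 in the beta cluster, with 677 in solvent and 823, 882 and 774.

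Over the whole stretch, regions with a peak after TGFβ1 and none in solvent numbered 7 of 52 at 6 h, 10 of 55 at 24 h and 7 of 52 at 72 h. These are 13.5%, 18.2% and 13.5%, against 23.0%, 30.2% and 30.1% of all regions of the genome. The stretch includes the flank with other genes. Inside the span of the protocadherin genes the shares were 22.2%, 27.6% and 22.2%, and at the protocadherin promoter regions 23.5%, 31.6% and 23.5%. No region open in solvent lost its peak at 6, 24 or 72 h (0 of 45 each time), against 0.714%, 1.86% and 3.44% of all regions. Of the 45 regions with a peak in both lists, 13, 15 and 8 had an AUC at least 1.5-fold that of solvent at 6, 24 and 72 h, against 40.5%, 43.0% and 35.8% of all shared regions. Such a ratio was seen at 7, 8 and 5 of the 13 shared protocadherin promoter regions, and at 6, 7 and 3 of the 27 shared regions away from promoters. None of the 45 regions was at least 1.5-fold lower at any time, against 0.186%, 1.02% and 1.96% of all. When each list was shortened to the length of the solvent list, 1, 0 and 0 regions were gained and 0, 0 and 3 were lost at 6, 24 and 72 h.

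The AUC summed over the 58 regions was 92151 in solvent, from 47 peaks covering 33370 bp. It was 126472 at 6 h over 38288 bp, 124772 at 24 h over 38333 bp and 112814 at 72 h over 35651 bp. The mean AUC per covered base was 2.76 in solvent and 3.30, 3.25 and 3.16 after TGFβ1. The sums after TGFβ1 were 1.37, 1.35 and 1.22 times that of solvent, whereas the sums over whole lists were 1.48, 1.51 and 1.43 times. As a share of the whole list, the 58 regions held 0.0843% in solvent and 0.0782%, 0.0754% and 0.0723% after TGFβ1, so that the direction of the change depended on whether the lists were scaled. Of the solvent sum, 54085 came from the flank after the gamma cluster. The sums inside the span of the genes were 1.41, 1.43 and 1.27 times that of solvent. At the protocadherin promoter regions they were 1.46, 1.61 and 1.38 times. The share of these promoter regions was 0.0165% in solvent and 0.0163%, 0.0175% and 0.0159% after TGFβ1.

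Peaks that passed the threshold in only 1 list add to such sums, so the clusters were compared over the regions with a peak in both lists, a choice made after the values were seen. Over the 7 such regions of the gamma cluster the ratio to solvent was 1.46, 1.69 and 1.5 at 6, 24 and 72 h, and over the 6 without the PCDHGC5 promoter it was 1.32, 1.41 and 1.27. Over the 8 regions of the alpha cluster it was 1.33, 1.26 and 1.14. Over the 4 regions of the beta cluster it was 1.43, 1.59 and 1.31, and for the 45 regions of the whole stretch 1.35, 1.32 and 1.20. The common shift, a median over single regions and not a ratio of sums, was 1.42, 1.42 and 1.31. The alpha cluster, the whole stretch and the gamma cluster without PCDHGC5 lay below it at each time. The gamma cluster lay above it at each time, and the beta cluster at 6 and 24 h.

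In the flank after the gamma cluster, which held 26 of the 58 regions, the promoters of DIAPH1, ARAP3, FCHSD1 and the shared promoter of HDAC3 and RELL2 were open in all lists. The promoter region of ARAP3, a regulator of small GTPases, had 7521 in solvent and 9590, 9060 and 8393 after TGFβ1. That of HDAC3, a histone deacetylase, and RELL2 had 7297 in solvent and 9833, 8778 and 7689, and that of DIAPH1 had 6876 in solvent and 8375, 7520 and 6756. These 3 regions had the highest summed AUC of the stretch. Between the beta and gamma clusters TAF7, a subunit of the general transcription factor TFIID, had 2459 in solvent and 3375, 3143 and 2686, and SLC25A2, a mitochondrial carrier, had no promoter peak. The promoter region of FCHSD1 had 1278 in solvent and 1884, 1646 and 1513 after TGFβ1. One intronic region of DIAPH1, chr5:141598863-141599330, had 253 in solvent and 445, 836 and 719 after TGFβ1, which is 3.31-fold the solvent value at 24 h.

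Protocadherins outside the clusters were partly open. Of 12 such genes 5 had a promoter peak in solvent and 6 at each time of TGFβ1. Over all protein-coding promoters the share was 64.2% in solvent and 65.9%, 66.0% and 65.4% after TGFβ1. PCDH1, PCDH7 and PCDH9 had AUC values of 4691 or more in all lists, PCDH18 had 260 in solvent and 677, 702 and 495 after TGFβ1, and PCDH15 had 395, 300 and 313 after TGFβ1 with no peak in solvent. All 14 promoters of factors known to act on the clusters, among them CTCF, the cohesin subunits RAD21, SMC1A and SMC3, and the cohesin loader NIPBL, were open in every list. Their median ratios to solvent of 1.32, 1.19 and 1.14 at 6, 24 and 72 h were close to those over all protein-coding promoters, 1.31, 1.23 and 1.12.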

How the data were processed

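ATAC-seq had been carried out on 8 MCF10A libraries, 2 replicates for each of solvent and 6, 24 and 72 h of TGFβ1. The authors used Trimmomatic 0.38 for paired reads of 150 bases, Bowtie2 2.4.5 for alignment to GRCh38, Picard to drop duplicates, and SAMtools 1.4.1 to keep reads of high mapping quality, which leaves out those with several equally good positions. They called peaks with Genrich 0.5 on both replicates together and removed blacklisted regions (versions from the submitters' processing notes). The deposited signal value is the AUC of a peak, which rises with depth and width, and the −log10 q that the authors deposited belongs to its summit. The authors tested differential accessibility in csaw and edgeR from the reads of each replicate, which was not used here. The depth reached is not given in the lists, and intervals cover counting error only. The labels place solvent at time 0, whereas a legend of the study gives 72 h.

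Lists were merged where peaks overlapped or touched, and AUC was summed per region. Start sites were those of the MANE Select transcript in GENCODE 44. Promoter windows were aligned to chromosome 5 with blastn 2.17.0. Values were computed with pandas 2.3.3, numpy 2.4.6 and scipy 1.17.1 under Python 3.11.15 and drawn with matplotlib 3.10.9. Counting steps were tested on simulated data. The genes and lists were chosen with earlier results of these data known. Named were all members with a promoter peak, members without one where a subfamily has 5 or fewer of these, regions gained or lost inside the span, the 10 regions of largest summed AUC and the protein-coding neighbours. The region in DIAPH1 with 3.31-fold at 24 h and the near-identical pairs were chosen after their values were seen, as were the ranges of solvent AUC.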

Additional observations from a re-analysis of the deposited data

How the results depend on the processing

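Of 94 values obtained with another setting, 64 stayed within 1.5 times the value given, or kept their direction for the AUC sums. With peaks of an AUC of at least 400 only, 6 promoters were open in solvent, against 11, 12 and 11 at 6, 24 and 72 h, and 1, 1 and 0 regions were gained at 6, 24 and 72 h. With lists of equal length, 10 promoters were open at 72 h, 1, 0 and 0 regions were gained and 3 were lost at 72 h. When shared peaks had to cover 50% of each other, 16 and 11 regions were gained at 24 and 72 h, and 2, 6 and 4 were lost at 6, 24 and 72 h. When regions within 3000 bp of any annotated start were left out, 16, 19, 20 and 19 regions away from promoters remained open in solvent and at 6, 24 and 72 h. At a threshold of 2-fold, 2, 5 and 3 regions were higher, and relative to the median of all shared regions 2, 4 and 3 were at least 1.5-fold higher. The log2 ratio of the AUC sums to solvent, 0.46, 0.44 and 0.29, became −0.048, −0.065 and −0.10 after the median of all shared regions was subtracted and −0.11, −0.16 and −0.22 as a share of the whole list. Over regions with a peak in both lists, a setting added after the data were seen, it was 0.43, 0.40 and 0.27. No paired analysis was possible because the replicates of each condition were pooled when peaks were called, and the reads per replicate that the study tested were not used here. The lists give no reads, so that a promoter without a peak is one below the threshold of the caller and not one shown to be closed.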
